A study of Homo sapiens with 12 samples.

Results

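The comparison described here set senescent WI-38 fibroblasts in which the receptor gene NTRK2 was silenced directly against senescent WI-38 fibroblasts in which its ligand gene BDNF was silenced. WI-38 is an established line of human diploid fibroblasts. The 3 libraries labelled siNTRK2 and the 3 labelled siBDNF were taken by their labels, 6 of the 12 libraries of the series. Both groups received etoposide at 50 µM, which blocks topoisomerase, leaves breaks in DNA and drives cells into senescence, and were collected 8 days into senescence, with an siRNA pool transfected at 25 nM before the drug was added. They therefore shared the drug, the dose, the time and the transfection and differed by the target of the siRNA. The authors reported that silencing either gene lowered the survival of these cells, more so in late senescence. Both groups thus held the cells that remained, and the part of cell loss in the differences was not tested. Another 3 etoposide-treated libraries with a non-targeting siRNA (siCtrl) and 3 proliferating siCtrl libraries served as reference levels. Each target was silenced with 1 siRNA pool in 1 cell line, and each group was a bulk culture, in which fewer cells of a type and less RNA per cell cannot be told apart. Nothing in the labels says that the 3 libraries of a group came from separate cultures, so p-values measure only the spread between these libraries.

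TrkB, the product of NTRK2, is a receptor tyrosine kinase on the cell surface. BDNF, a secreted growth factor known mainly from neurons, binds it and starts signalling through the ERK, AKT and phospholipase C-gamma pathways. Senescent fibroblasts leave the cell cycle under p53 and p21, survive through BCL2 family proteins, and release cytokines, chemokines, proteases and growth factors, a secretion that depends to a large degree on NF-kB and on interleukin-1 alpha. Since receptor and ligand belong to one signalling unit, the direct comparison asked in which programs silencing of the one differed from silencing of the other.

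The 6 libraries held between 31567912 and 67146223 counts. In a principal component plot of the 9 senescent libraries, siNTRK2 replicate 2 stood apart on the first component (24.6% of the variance). It also had the fewest genes with at least 1 count, 26025 when every library was thinned to 31567912 counts, against 27313 and 27404 in the other siNTRK2 libraries, 27571 to 28449 with siCtrl and 29427 to 29571 with siBDNF. Detection of rare transcripts was thus lower in all siNTRK2 than in all siBDNF libraries, and the part of this difference in the results was not tested. The cells carried the markers of fibroblasts: all 9 fibroblast markers, such as COL1A1, DCN and VIM, were detected. Their summed level was 27300 to 30300 CPM with siNTRK2 and 24900 to 25400 with siBDNF. CPM are counts scaled to a common library size, by library totals alone for these sums of markers and with TMM factors for single genes. Of these 9 markers, 8 were higher with siNTRK2 than with siBDNF at an adjusted p under 0.05. Leukocyte and epithelial markers were sparse, with summed levels of 1.6 to 1.78 (siNTRK2) and 2.89 to 3.01 CPM (siBDNF) for 5 leukocyte markers, of which CD3E stayed under the expression filter, and of 3.42 to 4.4 and 5.39 to 6.43 CPM for 6 epithelial markers, of which KRT5 had 0 counts in all siNTRK2 libraries. The summed level of 5 endothelial markers was 35 to 41.4 CPM with siNTRK2 and 25.6 to 26.8 with siBDNF. Most of it came from the receptor gene TEK, at 32.8, 39.5 and 35.5 CPM with siNTRK2 and 22.5, 22.2 and 23.3 with siBDNF. The median log2 fold change of the 4 tested endothelial markers was -0.04. Outside the fibroblast and smooth muscle markers, those past the adjusted p were TEK, the angiopoietin receptor (log2 fold change 0.66), the neuronal SNAP25 (0.64), the epithelial CLDN4 (-0.50) and the leukocyte receptor CSF1R (-1.19). Of these, CSF1R failed without siNTRK2 replicate 2 or siBDNF replicate 3, SNAP25 without siBDNF replicates 2 or 3, and CLDN4 without replicates 2 or 3 of either group. The 5 neuronal markers summed to 13.9 to 17 and 15.6 to 16.1 CPM, and the 5 adipocyte markers to 0.92 to 1.01 and 0.966 to 1.49 CPM. The 5 smooth muscle markers summed to 308 to 319 CPM with siNTRK2 and 233 to 239 with siBDNF. By adjusted p, 2 of them were higher with siNTRK2, among them ACTG2 (0.67), and 1 was lower, MYH11 (-0.49). The part of any other cell type in the results was not tested.

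Both targets were lowest in the libraries labelled for them. NTRK2 (ENSG00000148053, chr9:87283290-87710666, plus strand of hg19) had 0 counts in all 3 siNTRK2 libraries and 10, 23 and 29 counts in the siBDNF libraries. Its mRNA was at least 5.88-fold lower with siNTRK2, computed against the 3 counts taken as the smallest detectable signal per library (adjusted p = 2.73e-04). Even with siBDNF its level was only 0.356 ± 0.06 CPM (SD, n = 3), so the receptor mRNA lay near the limit of detection in every library. The siCtrl mean was 0.185 CPM (7, 15 and 10 counts), and the bound of 5.88-fold refers to siBDNF, not to siCtrl. BDNF (ENSG00000176697, chr11:27676440-27743605, minus strand) was at 205, 206 and 203 CPM in the siNTRK2 libraries and at 48.1, 48.9 and 44.3 CPM in the siBDNF libraries. The groups did not overlap, as was the case for 34.2% of all tested genes, and BDNF mRNA was 4.35-fold higher with siNTRK2 (log2 fold change 2.12, standard error 0.049, adjusted p = 3.28e-20). The siCtrl mean of 162 CPM lay between the groups. BDNF-AS, an antisense gene overlapping BDNF, differed to a similar degree (2.16, adjusted p = 1.23e-16), but the strand setting of the counting was not stated, so reads of the overlap may have been counted for either gene.

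Of 21518 tested genes, 250 (1.16%) differed between the silencings with an adjusted p under 0.05 and a log2 fold change beyond 1 in either direction, with 72 higher (0.335%) and 178 lower (0.827%) with siNTRK2. Most of the excess of lower genes lay among rare transcripts. Of the genes with a mean under 1 CPM, 34 were higher and 126 lower, against 38 higher and 52 lower among those of at least 1 CPM and 12 and 16 among those of at least 10 CPM. By adjusted p alone 3595 genes differed (16.7%), and here 1903 were higher (8.84%) and 1692 lower (7.86%), and the median size of their log2 fold changes was 0.32. This balance depended on the scaling, since with library totals alone 1349 were higher and 2227 lower, a setting that moved the median of all genes by -0.04. Without siNTRK2 replicate 2 the numbers past both cutoffs were 75 higher and 178 lower, with 157 of the 250 genes among them, and without siBDNF replicate 3 only 118 were lower and 52 higher. Counts of list members below refer to the adjusted p under 0.05 and are to be read against the shares of 8.84% and 7.86%. These shares cover genes of all levels. Of 5950 genes with a mean under 1 CPM, 43 were higher and 139 lower by adjusted p. Of 9893 genes with a mean of at least 10 CPM, 1427 were higher and 1168 lower. Lists of abundant genes are therefore to be read against larger shares.

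**Figure D1:**
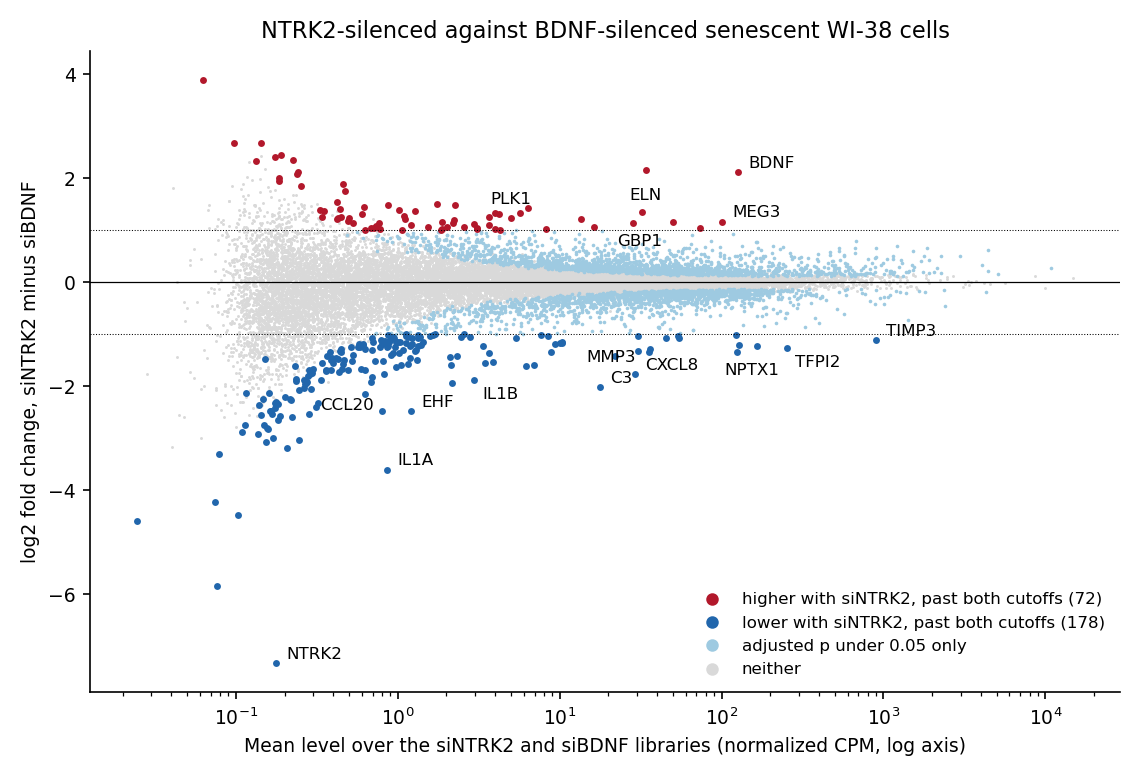
Log2 fold change of siNTRK2 over siBDNF (vertical axis) against the mean level over the 6 libraries (horizontal axis, normalized CPM, log scale) for each tested gene, apart from a few sex-linked genes that are not drawn. Red points (72) were higher and blue points (178) lower with siNTRK2 past both cutoffs, dotted lines mark log2 fold changes of -1 and 1, and most blue points lie at low levels.

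The programs parted in opposite directions. Of the chemokine, interleukin, NF-kB, ERK output and p53 target genes that passed, most were lower with NTRK2 silencing than with BDNF silencing, whereas most mitotic genes, collagens, contractile genes and genes of the mitochondrial genome were higher. Among ribosomal protein genes and nuclear-encoded respiratory chain genes, 2 of 48 and 4 of 41 members passed the threshold. The ribosomal count depended on the fit, since 10 genes were higher and 0 lower when only the 6 libraries compared were fitted and 8 were higher with no filter on low counts. Left-out libraries moved these small counts: 4 ribosomal genes passed without siNTRK2 replicates 1 or 3 and 1 without any other library, and 1 respiratory gene passed without siBDNF replicate 2 and 2 without siNTRK2 replicate 2 or siBDNF replicate 1. Against the shared siCtrl libraries, 35 of the 48 ribosomal genes were lower with siNTRK2 and 46 with siBDNF. Of the 41 respiratory genes, 23 were lower with siNTRK2 and 25 with siBDNF. In both lists 0 were higher with either silencing. Over all genes, 10% were lower with siNTRK2 and 10.2% with siBDNF.

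**Figure D2:**
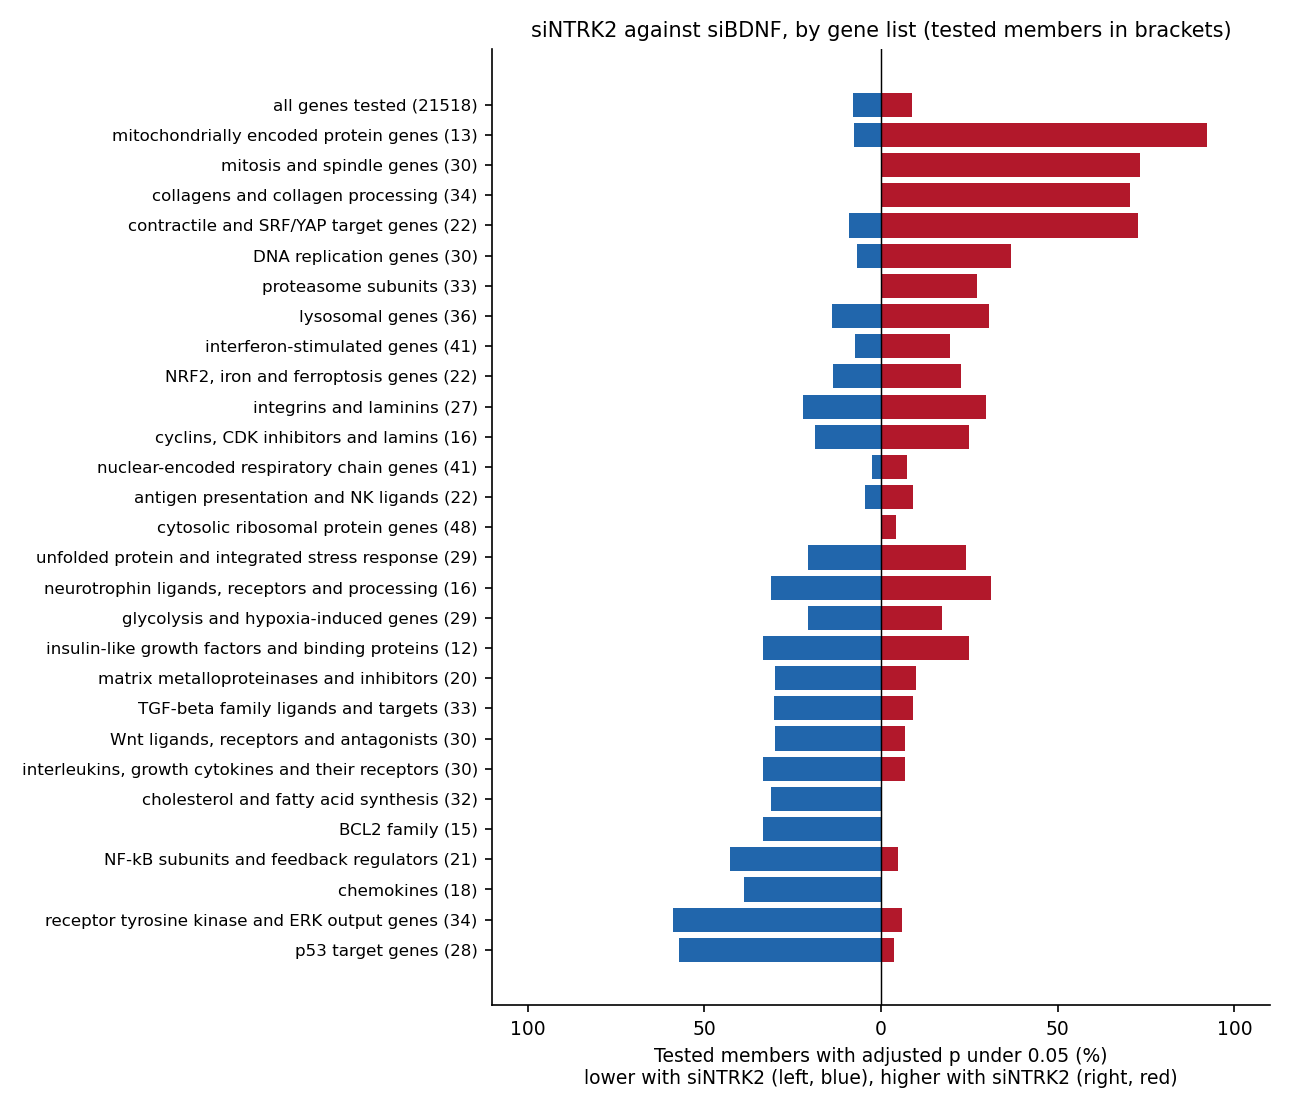
Percentage of tested members of each gene list with an adjusted p under 0.05, lower with siNTRK2 to the left (blue) and higher to the right (red), with the number of tested members in brackets and all tested genes on top (8.84% higher, 7.86% lower). Mitochondrially encoded, mitotic, collagen and contractile genes reach farthest to the right, p53 targets and ERK output genes farthest to the left.

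Chemokines, small secreted proteins that attract leukocytes, were lower with siNTRK2 in 7 of 18 tested members and higher in 0, with a median log2 fold change of -0.98 against 0.00 over all genes. CXCL8, which attracts neutrophils, was at 11.9, 13.5 and 14.2 CPM with siNTRK2 and at 45.6, 43.3 and 46.2 CPM with siBDNF. Every siNTRK2 library lay below every siBDNF library, and the difference was 3.42-fold (log2 fold change -1.77, standard error 0.071, adjusted p = 2.90e-15). CXCL1, another neutrophil attractant, was at 1.15, 0.988 and 1.02 CPM with siNTRK2 and at 3.3, 3.29 and 3.06 with siBDNF (-1.60, adjusted p = 3.22e-07). The related CXCL3 (-1.52) and CXCL5 (-1.52), the interferon-inducible CXCL10 (-1.57) and CCL20 (-2.54), which attracts lymphocytes and dendritic cells, were also lower past both cutoffs, but at mean levels under 2 CPM in both groups. CXCL12, a homing factor for blood progenitors, was lower by a smaller amount (-0.61, adjusted p = 2.44e-04). CXCL2 (-1.46, adjusted p = 0.0779) and CXCL11 (-2.02, adjusted p = 0.0893) did not pass. CXCL1, CXCL2 and CXCL3 are similar in sequence, so that reads may have been split between them. Between 7 and 9 chemokines were lower whichever library was left out. The leukocyte markers above were lower with siNTRK2 in sum as well, and their part in this result was not tested.

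Several CXC chemokine genes lie close together on chromosome 4, among them CXCL8 (chr4:74606236-74609433 of hg19, plus strand), CXCL1 (chr4:74735110-74737025, plus strand), CXCL5 (chr4:74861359-74864394, minus strand) and CXCL3 (chr4:74902306-74904524, minus strand). The 100 bases before their transcription starts are shown because these 4 genes were all lower with siNTRK2 and hold the same short motif, GGAATTTCC, of the kind bound by NF-kB, beginning 78 to 91 bases before the start (capitals, RefSeq sequence on GRCh38.p14, each written 5′ to 3′ in the direction of its gene).
CXCL8, chr4:73740469-73740568: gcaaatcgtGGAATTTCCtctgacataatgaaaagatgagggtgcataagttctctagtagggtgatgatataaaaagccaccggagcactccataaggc
CXCL1, chr4:73869293-73869392: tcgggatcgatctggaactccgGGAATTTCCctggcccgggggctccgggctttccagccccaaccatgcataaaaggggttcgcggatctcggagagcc
CXCL5, chr4:73998678-73998777: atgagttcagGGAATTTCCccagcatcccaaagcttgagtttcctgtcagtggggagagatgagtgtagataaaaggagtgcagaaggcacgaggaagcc
CXCL3, chr4:74038690-74038789: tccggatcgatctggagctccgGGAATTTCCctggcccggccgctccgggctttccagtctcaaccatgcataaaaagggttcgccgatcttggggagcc
Searched on both strands in the 250 bases before the start, this motif was present in 5 of the 7 chemokine genes that were lower and in 8 of the 15 tested chemokine genes with a promoter in the table, against 0.502% of 27305 genes. It was present in 3 of the 9 called and 6 of the 19 tested NF-kB list genes with a promoter, and in 0 of the 10 called and 1 of the 22 tested interleukin list genes. The promoters of CXCL1 and CXCL3 are nearly the same sequence, so these are not independent cases. A match describes the letters only.

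Interleukins, other cytokines and their receptors were lower with siNTRK2 in 10 of 30 tested members and higher in 2. IL1A, whose product starts much of the senescent secretion, was at 0.0808, 0.181 and 0.13 CPM with siNTRK2 and at 1.47, 1.58 and 1.69 CPM with siBDNF. It was 12.2-fold lower (log2 fold change -3.60, standard error 0.42, adjusted p = 6.68e-07) and was the gene with the largest decrease among those with a mean of at least 1 CPM in either group. Its counts were few, between 5 and 9 per siNTRK2 library and between 48 and 116 per siBDNF library. IL1B, the second interleukin-1 agonist, was at 1.03, 1.61 and 1.15 CPM with siNTRK2 and at 3.75, 5.04 and 5.04 CPM with siBDNF, a 3.7-fold difference (-1.89, adjusted p = 1.32e-07). IL1RL1, which encodes the receptor of interleukin-33, was lower (-1.43, adjusted p = 6.77e-06), as was LIF, a ligand of the interleukin-6 family (-0.42, adjusted p = 1.15e-05), and IL6 itself differed little (-0.30, adjusted p = 0.0418) and lost its call without any library other than siNTRK2 replicate 2 or siBDNF replicate 2. IL33 (-1.42, adjusted p = 0.0486) and the granulocyte growth factor CSF3 (-2.59, adjusted p = 0.0344) passed with few counts. IL33 was lost when any of the 6 libraries was left out, and CSF3 when any library other than siNTRK2 replicate 3 was left out. In the whole list, 6 members were lower and 0 higher without siNTRK2 replicate 1 or without siBDNF replicate 1.

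The shared siCtrl libraries show on which side the interleukin-1 genes parted. Against siCtrl, IL1A fell by 2.21 on the log2 scale with siNTRK2 and rose by 1.40 with siBDNF, and IL1B likewise changed by -1.25 and 0.63. CXCL8 was lower with siNTRK2 (-1.52) and slightly higher with siBDNF (0.26), and for CXCL5 the values were -1.48 and 0.04, the latter not past the threshold. In 3 mRNAs outside these lists with a large difference, the direct difference came mainly from the siBDNF side. They were TNFSF15, a cytokine of the tumour necrosis factor family (-0.07 with siNTRK2 and 1.54 with siBDNF), THBD, which encodes the anticoagulant receptor thrombomodulin (-0.18 and 1.77), and GNGT1, a G protein gamma subunit known from photoreceptors (0.10 and 1.69). GNGT1 (chr7:93220885-93540577 of hg19, plus strand) spans the gene TFPI2 on the minus strand (chr7:93514708-93520065). Reads of TFPI2, which is far more abundant and also differed, may therefore have been counted for GNGT1. The central complement gene C3 moved to both sides: it was at 7.14, 6.93 and 7.04 CPM with siNTRK2, at 28.7, 29.2 and 27.3 CPM with siBDNF and at 11.6 CPM on average with siCtrl, and differed directly by -2.01 on the log2 scale (adjusted p = 1.81e-14). These comparisons with siCtrl share the same 3 control libraries, so their values are not independent of each other.

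**Figure D3:**
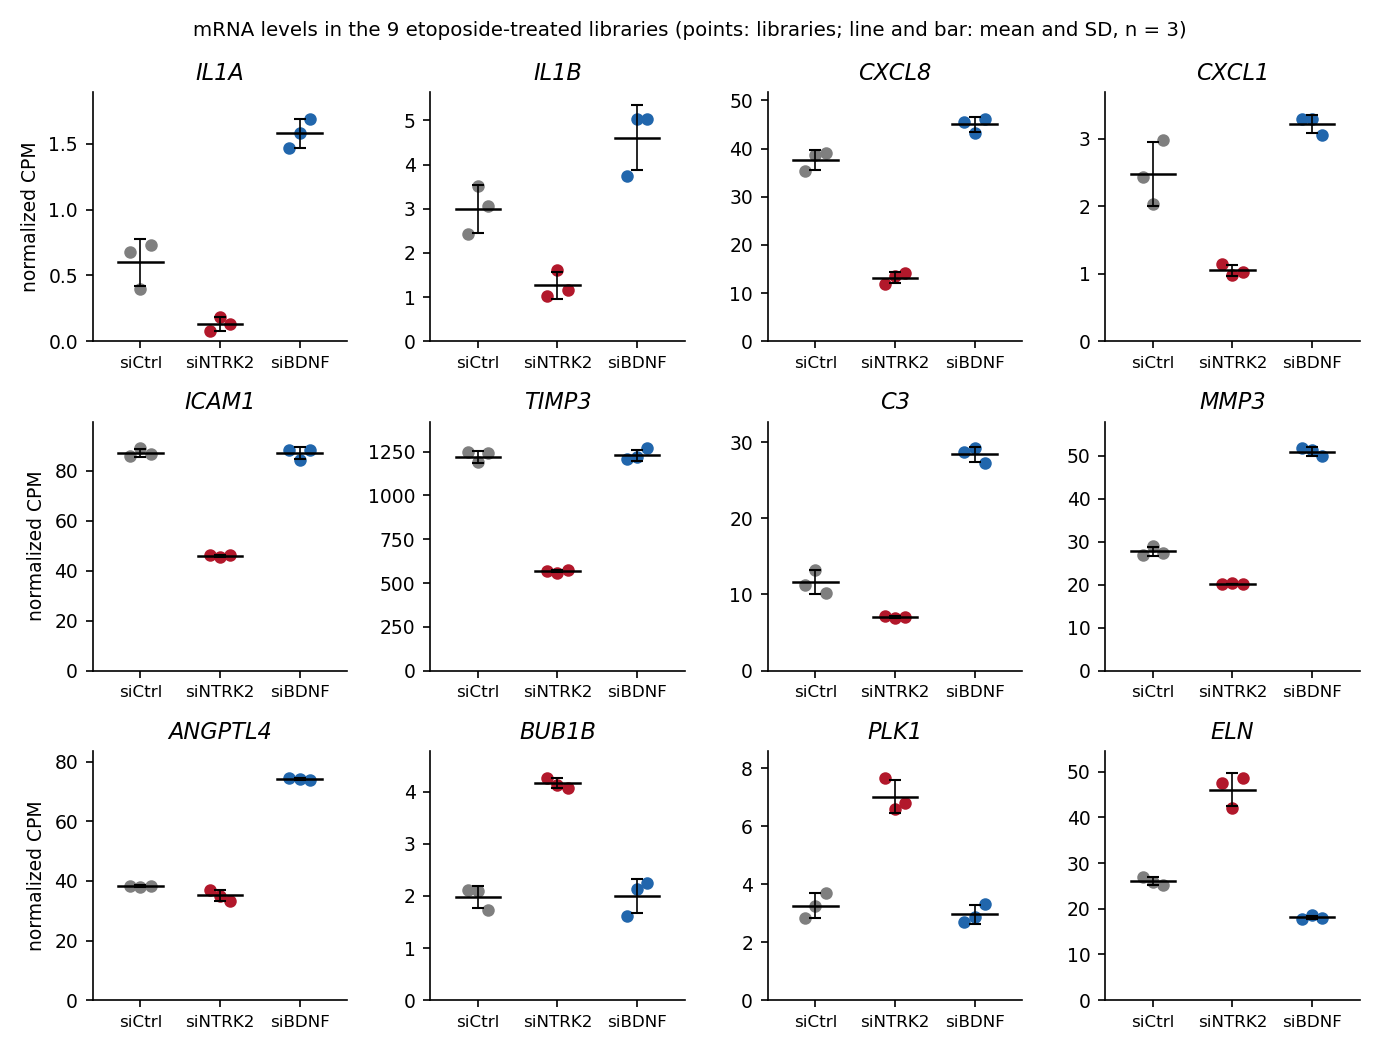
Normalized CPM of 12 genes in the 9 etoposide-treated libraries, with 1 point per library and the mean and SD of each group of 3. IL1A, IL1B, CXCL8, CXCL1, ICAM1 and TIMP3 are lowest with siNTRK2, C3, MMP3 and ANGPTL4 are highest with siBDNF, and BUB1B, PLK1 and ELN are highest with siNTRK2.

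NF-kB subunits, their inhibitors and classical targets were lower with siNTRK2 in 9 of 21 members and higher in 1. Among the inhibitors, which NF-kB induces as feedback, NFKBIA was at 31.1, 29.1 and 30.6 CPM with siNTRK2 and at 44.4, 42.1 and 43.2 with siBDNF (log2 fold change -0.51, adjusted p = 1.04e-07), and TNFAIP3 (-0.62), NFKBIZ (-0.66) and TNIP1 (-0.26) were lower too. Of the subunits only RELB passed (-0.49). Among the targets, the adhesion receptor ICAM1 was at 46.3, 45.4 and 46.2 CPM with siNTRK2 and at 88.2, 84.2 and 88.5 CPM with siBDNF (-0.92, standard error 0.049, adjusted p = 5.34e-13). It was at 87.3 CPM with siCtrl, so that the difference lay on the siNTRK2 side. PTGS2, which encodes the prostaglandin synthase COX-2, was lower as well (-1.55, adjusted p = 2.86e-07). The exception was VCAM1, another adhesion receptor, at 7.35, 9.11 and 8.01 CPM with siNTRK2 and 2.84, 3.25 and 3.49 CPM with siBDNF (1.33, adjusted p = 1.10e-09). Its siCtrl mean was 7.29 CPM, and its difference lay on the siBDNF side. In this list 9 or 10 members were lower whichever library was left out.

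Interferon-stimulated genes showed no common direction, with 8 of 41 members higher and 3 lower with siNTRK2. GBP1, a guanylate-binding protein of cell-autonomous defence, was at 35.4, 42.4 and 39.5 CPM against 18.8, 17.3 and 17.6 CPM (log2 fold change 1.13, adjusted p = 3.00e-12). The antiviral membrane proteins IFITM1, IFITM2 and IFITM3 were higher by 0.50, 0.55 and 0.50, but similar sequences may have shared reads among them, while IFI6, a mitochondrial survival protein, was lower (-0.77, adjusted p = 1.61e-08). With library totals alone 6 members were higher and 5 lower, and with only the 6 libraries compared, or without siNTRK2 replicate 2, siBDNF replicate 1 or siBDNF replicate 2, only 1 was lower.

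Genes that respond to receptor tyrosine kinases and ERK, the branch of signalling directly below receptors such as TrkB, were lower with siNTRK2 in 20 of 34 members and higher in 2, with a median of -0.23. The list held feedback inhibitors, of which 6 of 9 were lower, early transcription factors, of which 10 of 14 were lower, and ligands, of which 4 of 11 were lower and 2 higher. Among the feedback inhibitors, SPRY4 was at 70.4, 64.8 and 63.5 CPM with siNTRK2 and at 104, 106 and 104 CPM with siBDNF (-0.66, adjusted p = 3.93e-09), and the ERK phosphatases DUSP4 (-0.74) and DUSP6 (-0.26) were lower. Among the factors, FOSB (-1.17), EGR3 (-1.14), EGR2 (-1.04) and JUNB (-0.66) were lower, and EGR2 no longer passed both cutoffs without siBDNF replicate 2 (-0.86). Among the ligands, EREG, an activator of the epidermal growth factor receptor, was at 34.5, 31 and 34.2 CPM against 63.3, 61 and 62.4 CPM (-0.90, adjusted p = 3.78e-11).

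Set against siCtrl, the feedback inhibitors parted on the BDNF side, with 5 of 9 higher with siBDNF and 0 past the threshold in either direction with siNTRK2. The early transcription factors parted on both sides, with 6 of 14 lower with siNTRK2 and 5 higher with siBDNF. FOSB was lower with siNTRK2 (-0.97) and JUNB changed on both sides (-0.36 and 0.29). In the whole list, with siBDNF 16 of the 34 genes were higher than with siCtrl and 3 lower (10.3% and 10.2% of all genes), and with siNTRK2 4 were higher and 9 lower (11.1% and 10% of all genes). Among the ligands, EREG was higher by 0.77 with siBDNF and had a value of -0.14 with siNTRK2, which did not pass. AREG, a related ligand, was higher with both (0.83 with siBDNF and 0.32 with siNTRK2). Leaving out single libraries gave 16 to 20 lower members in the direct comparison.

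p53 target genes were lower with siNTRK2 in 16 of 28 members and higher in 1, all by small amounts (median -0.17, range -0.48 to 0.33). CDKN1A, which encodes p21, was at 2090, 1950 and 2050 CPM with siNTRK2 and at 2750, 2770 and 2860 CPM with siBDNF (log2 fold change -0.46, standard error 0.041, adjusted p = 9.38e-09). With siCtrl it was at 2880 CPM and in proliferating cells at 936 CPM. MDM2, the ligase that degrades p53 (-0.25), the death receptor FAS (-0.22), DDB2 of nucleotide excision repair (-0.28) and SESN2, a stress sensor (-0.39), were lower, and GADD45B was higher (0.33). Without siBDNF replicate 3, 10 of the 28 were lower. Against siCtrl, the list parted on both sides. With siNTRK2, 11 of the 28 were lower and 3 higher (10% and 11.1% of all genes). With siBDNF, 1 was lower and 9 higher (10.2% and 10.3% of all genes). In the BCL2 family, 5 of 15 members were lower and 0 higher. These were BCL2L1 (-0.15) and MCL1 (-0.41), which encode survival proteins, and BCL2L11 (-0.76), BMF (-0.38) and PMAIP1 (-0.29), which encode proteins that promote apoptosis. MCL1 was at 250, 253 and 262 CPM with siNTRK2, at 336, 334 and 346 CPM with siBDNF and at 247 CPM on average with siCtrl. BCL2L1 lost its call whichever library was left out and BMF without siNTRK2 replicate 2 or any 1 of the siBDNF libraries, and 3 family members were lower in each of the latter cases.

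Mitosis and spindle genes were higher with siNTRK2 than with siBDNF in 22 of 30 members and lower in 0, with a median of 0.69. Left-out libraries gave 20 to 22 higher members. PLK1, a kinase that drives entry into mitosis, was at 7.68, 6.61 and 6.8 CPM with siNTRK2 and at 2.69, 2.88 and 3.33 CPM with siBDNF (log2 fold change 1.23, standard error 0.10, adjusted p = 4.24e-09). KIF2C, a kinesin that corrects spindle attachments, was at 5.16, 6.45 and 5.55 CPM against 2.29, 2.42 and 2.1 CPM (1.33, adjusted p = 9.38e-09). KIF20A, a kinesin of cytokinesis (1.03), and BUB1B, a kinase of the spindle checkpoint (1.02), also passed both cutoffs, and TOP2A, which untangles chromosomes, was just under the cutoff on the fold change (0.98, adjusted p = 3.19e-10). These levels remained far below those of proliferating cells, in which PLK1 was at 42.3 CPM, KIF2C at 28.1, KIF20A at 52 and BUB1B at 19.7.

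The mitotic difference lay on the NTRK2 side. Against siCtrl, 25 of the 30 genes were higher with siNTRK2 and 0 lower (median 0.71), against 11.1% and 10% of all genes. With siBDNF, 3 were higher and 1 lower (median -0.01), against 10.3% and 10.2% of all genes. BUB1B, for instance, was at 4.27, 4.13 and 4.08 CPM with siNTRK2, at 1.62, 2.14 and 2.24 CPM with siBDNF and at 1.98 CPM on average with siCtrl. MKI67, a marker of cycling cells, was higher than with siCtrl in both silenced groups (1.72 with siNTRK2 and 0.91 with siBDNF) and differed between them by 0.81 (adjusted p = 4.72e-04). DNA replication genes parted less, with 11 of 30 higher and 2 lower and a median of 0.17. RRM2, a subunit of ribonucleotide reductase, was higher (0.92, adjusted p = 5.31e-10), while PCNA, the sliding clamp, was lower (-0.30, adjusted p = 2.93e-04). Without siBDNF replicate 3 only 5 replication genes were higher, and without siNTRK2 replicate 3 or siBDNF replicate 1 there were 7, as there were when only the 6 libraries compared were fitted. The list of cyclins, CDK inhibitors and lamins was divided, with 4 of 16 members higher with siNTRK2 and 3 lower (median 0.08). LMNB1, a nuclear lamina gene that is lost in senescence, was higher with siNTRK2 (0.81). The cyclin gene CCND2 was higher too (0.67), and the CDK inhibitor gene CDKN2B was lower (-0.62, adjusted p = 1.61e-08). Against siCtrl, CCND2 (1.58 with siNTRK2 and 0.92 with siBDNF) and CDKN2B (0.27 and 0.89) were higher with both silencings.

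The 100 bases before the start of PLK1, BUB1B and KIF20A are shown for the elements typical of mitotic promoters. Capitals mark the CCAAT box, written ATTGG on the opposite strand, and the sequence TTTGAA. PLK1 holds both, BUB1B only TTTGAA and KIF20A only CCAAT, at 2 positions (RefSeq sequence on GRCh38.p14, plus strand, 5′ to 3′).
PLK1, chr16:23678789-23678888: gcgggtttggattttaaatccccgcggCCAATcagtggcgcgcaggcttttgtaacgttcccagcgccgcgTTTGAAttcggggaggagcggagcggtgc
BUB1B, chr15:40160969-40161068: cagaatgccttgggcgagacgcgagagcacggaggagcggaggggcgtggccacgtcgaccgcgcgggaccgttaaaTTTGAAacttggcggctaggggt
KIF20A, chr5:138179012-138179111: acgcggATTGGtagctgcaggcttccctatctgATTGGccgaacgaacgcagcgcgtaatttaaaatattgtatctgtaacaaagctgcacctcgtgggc
Within 250 bases before the start and on both strands, CCAAT occurred in 16 of the 19 mitosis genes that were higher and had a promoter in the table, against 37% of all genes, and TTTGAA in 12 of the 19, against 16.1%. Among all 25 tested mitosis genes with a promoter, CCAAT occurred in 21 and TTTGAA in 14. Of the 11 DNA replication genes past the threshold, CCAAT occurred in 9 and TTTGAA in 1.

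**Figure D4:**
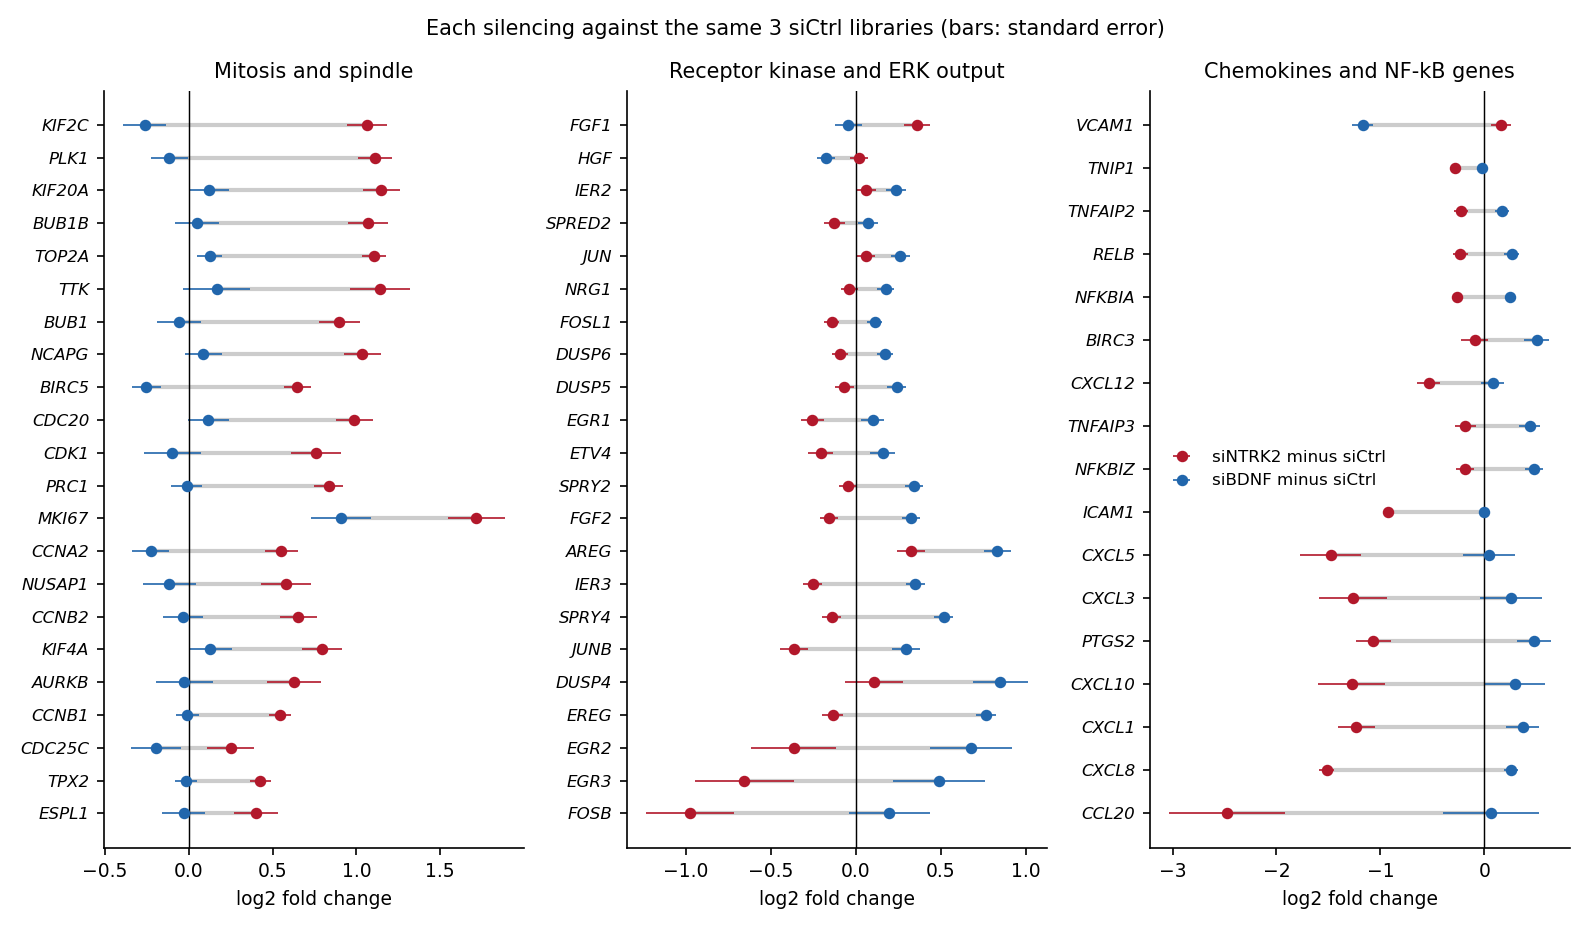
Log2 fold change against the same 3 siCtrl libraries with siNTRK2 (red) and siBDNF (blue), with standard errors, for members past the adjusted p in the direct comparison (22 mitosis genes, 22 ERK output genes, and chemokine and NF-kB genes). Mitosis genes lie to the right with siNTRK2 and, apart from MKI67, near 0 with siBDNF, ERK output genes lie mostly to the right with siBDNF, and the CXC chemokines lie to the left with siNTRK2.

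Collagens and the enzymes that process them were higher with siNTRK2 in 24 of 34 members and lower in 0, with a median of 0.38. Among the collagen chains, 19 of 22 were higher. COL4A2, a chain of basement membrane collagen, was at 1620, 1390 and 1500 CPM with siNTRK2 and at 892, 970 and 913 CPM with siBDNF (log2 fold change 0.70, standard error 0.059, adjusted p = 3.42e-09), and COL4A1, its partner chain, differed by 0.66. Of the fibrillar collagens, COL1A1 differed by 0.28, COL3A1 by 0.50 and COL5A2 by 0.48. The largest difference was that of COL15A1 (0.99, adjusted p = 7.89e-08). ELN, which encodes elastin, was at 47.6, 42.1 and 48.7 CPM against 17.8, 18.6 and 18 CPM (1.35, adjusted p = 2.79e-14), with a siCtrl mean of 26.1 CPM between them, and LUM, a proteoglycan of collagen fibrils, was higher too (0.69, adjusted p = 2.52e-10). Left-out libraries gave 21 to 25 higher collagen genes. Of the 9 fibroblast markers described above, 3 belong to this list, and their summed level was also higher with siNTRK2. Against siCtrl, 27 collagen genes were higher and 2 lower with siNTRK2 (11.1% and 10% of all genes). With siBDNF, 13 were higher and 5 lower (10.3% and 10.2% of all genes).

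Matrix metalloproteinases and their inhibitors were lower with siNTRK2 in 6 of 20 members and higher in 2. The collagenase MMP1 was at 434, 477 and 448 CPM with siNTRK2 and at 692, 691 and 693 CPM with siBDNF (log2 fold change -0.61, adjusted p = 1.95e-10). MMP3, a protease of broad range, was at 20.2, 20.3 and 20.2 CPM against 51.8, 51.4 and 49.9 CPM, and the membrane-bound MMP14 was lower by a smaller amount (-0.29). The 2 higher members were RECK (0.16), a membrane inhibitor of these proteases, and MMP19 (0.37), and without siNTRK2 replicate 2 or any 1 siBDNF library only 1 was higher. TIMP3, a matrix-bound inhibitor of these proteases, was at 568, 560 and 572 CPM against 1210, 1220 and 1270 CPM (-1.12, standard error 0.041, adjusted p = 4.99e-16). Its siCtrl mean was 1220 CPM, so its difference lay on the NTRK2 side, while MMP1 and MMP3 were lower than siCtrl with siNTRK2 (-0.22 and -0.46) and higher with siBDNF (0.39 and 0.87).

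Contractile genes and targets of the factors SRF and YAP, which respond to cell tension, were higher with siNTRK2 in 16 of 22 members and lower in 2. ACTG2, a smooth muscle actin, was at 205, 208 and 206 CPM with siNTRK2 and at 127, 127 and 136 CPM with siBDNF (log2 fold change 0.67, adjusted p = 1.20e-09). TAGLN (0.45) and CALD1 (0.53), both actin-binding proteins of contractile cells, ACTA2, the marker of myofibroblasts (0.33), and the YAP target CCN1 (0.49) were higher, and SRF itself (-0.19) and MYH11 (-0.49) were lower. ACTG2 was at 223 CPM with siCtrl. Against siCtrl, 12 of the 22 genes were lower and 2 higher with siBDNF (10.2% and 10.3% of all genes). With siNTRK2, 4 were lower and 7 higher (10% and 11.1% of all genes). In the direct comparison, the lower calls of SRF and MYH11 were lost without siNTRK2 replicate 2 or siBDNF replicate 2. That of SRF was also lost without siNTRK2 replicate 3 or siBDNF replicates 1 or 3, while 15 or 16 members were higher whichever library was left out. Of the 5 smooth muscle markers, 4 belong to this list.

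Other growth factor families were divided. In the TGF-beta family, 10 of 33 members were lower with siNTRK2 and 3 higher. The ligands BMP2 (log2 fold change -0.80), GDF15 (-0.65) and INHBA (-0.48) were lower, while TGFB2 was at 27.4, 27.1 and 27.9 CPM against 15.7, 16.4 and 16.7 CPM (0.76, adjusted p = 1.03e-08). In the Wnt pathway 9 of 30 members were lower, among them the receptors FZD5 (-1.11), FZD8 (-0.64) and FZD1 (-0.57), and 2 were higher, the secreted Dickkopf family member DKK3 (0.60) and the receptor ROR1 (0.56). Of integrins and laminins, which anchor cells to the matrix, 8 of 27 were higher and 6 lower. The laminin chain LAMA1 (0.58) and the integrins ITGA3 (0.41) and ITGA8 (0.74) were higher, and the epithelial-type ITGA6 (-0.52) and LAMB3 (-0.53) were lower. In the insulin-like growth factor group 3 of 12 members were higher, the binding proteins IGFBP2 (0.67), IGFBP5 (0.42) and IGFBP7 (0.65), and 4 were lower, or 2 without any 1 of the siBDNF libraries. The largest decrease there was that of STC1, a secreted glycoprotein that inhibits the protease PAPPA (-0.79, adjusted p = 4.52e-12).

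In the neurotrophin system, 4 members were higher and 4 lower of the 14 tested besides the targets NTRK2 and BDNF. SORT1, which encodes sortilin, a receptor for the BDNF precursor, was at 86.9, 90.5 and 86.4 CPM with siNTRK2 and at 60.9, 61.8 and 59 CPM with siBDNF (log2 fold change 0.54, adjusted p = 3.93e-09), and 84.1 CPM with siCtrl. The ligand NTF3 was higher (0.41, adjusted p = 0.0144), and NGFR, the shared neurotrophin receptor p75, was lower (-0.85, adjusted p = 0.0287). NTF3 lost its call without siNTRK2 replicate 3 or siBDNF replicate 3, and NGFR without siNTRK2 replicates 1 or 3 or siBDNF replicates 2 or 3. NTRK3, a related Trk receptor, did not pass (-1.82, adjusted p = 0.0604) and was at levels under 0.5 CPM in all libraries of both groups. SORCS1, a sorting receptor at a similarly low level, passed (-1.93, adjusted p = 0.049) but not when any library other than siNTRK2 replicate 3 was left out. With both targets the list had 5 higher and 5 lower members, or 3 and 3 without siBDNF replicate 3, 4 and 3 without siBDNF replicate 2, and 5 and 3 with DESeq2.

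All 13 protein genes of the mitochondrial genome differed between the silencings, 12 of them higher with siNTRK2. MT-CO1, a subunit of cytochrome c oxidase, was at 5010, 6030 and 5120 CPM with siNTRK2 and at 4040, 3520 and 2910 CPM with siBDNF (log2 fold change 0.62, standard error 0.086, adjusted p = 7.49e-06). The difference was largest for MT-ND1 of complex I (0.66), and the median was 0.50. MT-ND3, another complex I gene, went the other way, at 284, 298 and 309 CPM against 367, 324 and 370 CPM (-0.25, adjusted p = 8.62e-04). Nuclear copies of mitochondrial sequence, such as MTCO1P12, may share their reads. The share of all counts was also taken over every gene of the mitochondrial genome, tRNA genes such as MT-TS1 included, not only these 13. This share was 2.65% ± 0.178 (SD, n = 3) with siNTRK2 and 2.07% ± 0.301 with siBDNF, a difference of 0.586 percentage points. The libraries of the groups did not overlap, but the two-sided exact permutation test gave p = 0.1, the smallest that 3 against 3 libraries allow. The nuclear-encoded subunits of the same complexes were 3 higher and 1 lower of 41. Leaving out single libraries gave 10 to 12 higher mitochondrial genes.

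**Figure D5:**
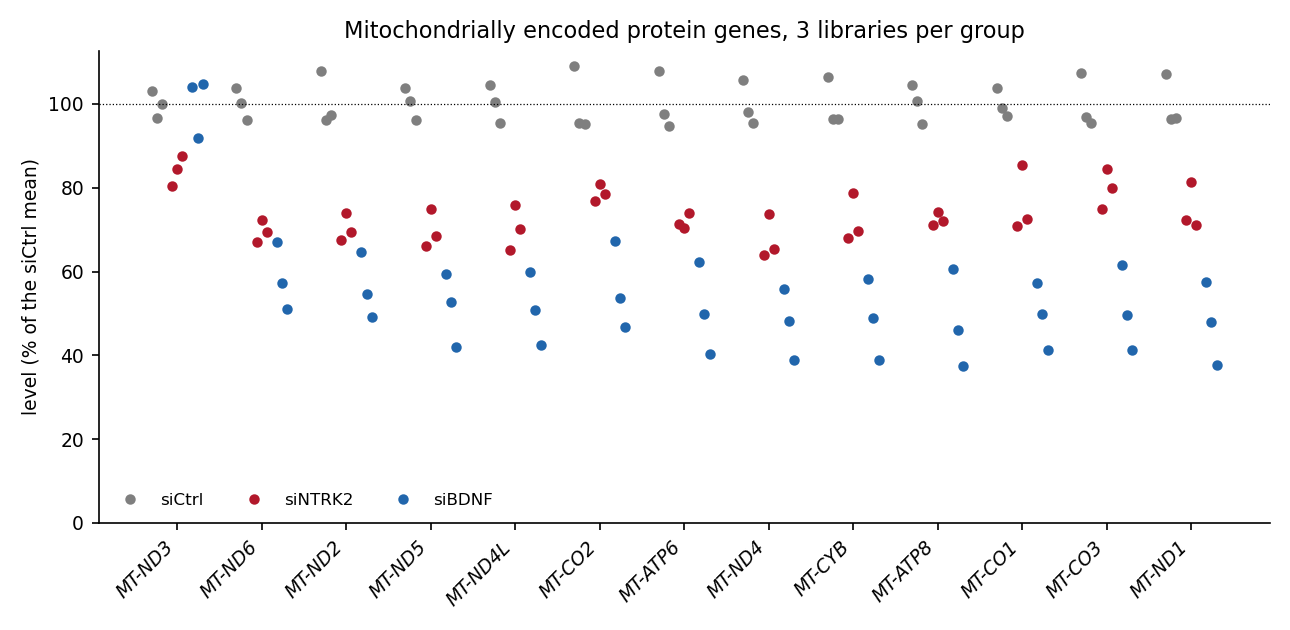
Level of the 13 mitochondrially encoded protein genes in each library as a percentage of the siCtrl mean, with 3 libraries per group. For 12 genes the siNTRK2 libraries lie between the siCtrl and the siBDNF libraries, and MT-ND3 is lowest with siNTRK2.

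Among metabolic and stress genes, those of cholesterol and fatty acid synthesis were lower with siNTRK2 in 10 of 32 members and higher in 0, led by INSIG1, which restrains the sterol-sensing factor SREBP (log2 fold change -0.62, adjusted p = 5.53e-09). INSIG1 was at 33, 34.4 and 34.2 CPM with siNTRK2, at 51.9, 51.6 and 53.2 CPM with siBDNF and at 34.3 CPM with siCtrl. Without siBDNF replicate 3, 6 members were lower. ANGPTL4, an inhibitor of lipoprotein lipase that hypoxia and lipids induce, was at 37.1, 35 and 33.3 CPM against 74.6, 74.3 and 73.8 CPM (-1.08, adjusted p = 2.57e-13), again with siCtrl (38.3 CPM) near the siNTRK2 level. Glycolysis and hypoxia genes as a whole were 5 higher and 6 lower of 29.

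Several abundant mRNAs outside the lists differed clearly. Lower with siNTRK2 were NPTX1, a pentraxin known from synapses, at 76.1, 64.6 and 71.7 CPM against 179, 180 and 182 CPM (log2 fold change -1.35), TFPI2, a protease inhibitor of the matrix (-1.27), CD68, a lysosomal glycoprotein best known from macrophages (-1.21), and SERPINE2, an inhibitor of serine proteases (-0.72). All 4 were above the siCtrl mean with siBDNF. With siNTRK2, NPTX1 (-0.41), TFPI2 (-0.29) and CD68 (-0.50) were also lower than with siCtrl, while SERPINE2 (0.01) did not pass. RPS28, a ribosomal protein gene outside the list of 48 that may share reads with its pseudogenes, was at 159, 159 and 157 CPM with siNTRK2 against 275, 263 and 282 CPM with siBDNF and 331 CPM with siCtrl. Higher with siNTRK2 were the long noncoding RNA MEG3 at 145, 130 and 141 CPM against 75.1, 71.4 and 40.2 CPM (1.17, adjusted p = 1.16e-06), ANKRD52, a subunit of a protein phosphatase complex (0.93), the collagen-modifying hydroxylase P3H2 (0.77) and C1S, a protease of the complement system (0.77). APOE, the lipid carrier, was at 20.7, 17.3 and 19 CPM against 7.78, 8.61 and 8.19 CPM (1.21, adjusted p = 1.12e-10).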

How the data were processed

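WI-38 cells were profiled by stranded polyA RNA-seq. The authors trimmed adapters with Cutadapt, aligned reads to hg19 with STAR 2.4.0j and counted them per gene with featureCounts 1.6.4, and deposited whole-number counts for each library without normalization. Whether counting used the strand is not given in the sources used here. Here, counts of all 12 libraries were fitted in R 4.3.3 with edgeR 4.0.16 (TMM, filterByExpr over the 4 groups, quasi-likelihood test, 1 term per group, Benjamini-Hochberg adjustment over 21518 genes). Calls required an adjusted p under 0.05, with or without an absolute log2 fold change over 1. Standard errors are the log2 fold change over the square root of F. DESeq2 1.42.0, other scalings and filters, only 6 libraries, a replicate block, a minimum fold and left-out libraries were alternatives. In simulated counts, 200 of 21518 genes were changed by 1.5 or 3 on the log2 scale, with the spread that edgeR fitted to these data. For this comparison edgeR called 180 of them past both cutoffs, with 0 false calls. The simulated counts followed the model that edgeR fits. They held no outlying library such as siNTRK2 replicate 2 and no lower detection in a whole group. The number of false calls in the real data therefore cannot be read from them. Smaller changes, and calls by adjusted p alone, were not simulated. Named genes were the targets, list members and the largest differences (15 per direction at 1 CPM or more, 10 per direction at 100 CPM or more), without sex-linked genes. The members and the 28 program lists (758 of 784 listed genes, markers included, were tested) were chosen with earlier results of these data known. Totals ranged from 31567912 to 67146223 counts, and the floor of 3 counts covers counting error only, since reads carry no molecular identifiers. Library pairs within a group differed beyond sampling noise (chi-square per gene 3.92 to 13.6).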

Additional observations from a re-analysis of the deposited data

How the results depend on the processing

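The 250 genes past both cutoffs became 187 with DESeq2 (181 shared), 263 with library totals alone (235 shared) and 656 (328 higher and 328 lower) when a minimum fold of 1.2 was tested in place of the fold change cutoff. With each library left out in turn they numbered 170 to 281 (52 to 83 higher, 118 to 198 lower), of which 137 (without siBDNF replicate 3) to 172 (without siNTRK2 replicate 3) were among the 250, and those past the adjusted p alone 2286 to 3249 (1236 to 1691 higher, 1050 to 1583 lower). Of 28 gene lists, 15 had more members higher than lower with siNTRK2, 11 to 15 with a library left out, and 8 with library totals alone. The difference between higher and lower calls changed sign with library totals for the unfolded protein (-3), nuclear respiratory (-3), lysosomal (-4), NRF2 and iron (-3) and antigen presentation (-1) lists. It also did so without siNTRK2 replicate 3 for the unfolded protein list (-1), without siNTRK2 replicate 2 for the nuclear respiratory list (-2), without siBDNF replicate 2 for the unfolded protein (-2), nuclear respiratory (-1) and NRF2 (-1) lists, and without any 1 siBDNF library for the insulin-like growth factor list (1). The cause of these changes was not tested. The mitochondrial share differed by 0.444 to 0.744 percentage points with a library left out. No named gene changed direction. The replicate numbers did not pair the libraries (correlations of deviations 0.00144, -0.0396 and 0.00413), and with the number as a replicate block 233 genes passed both cutoffs (68 higher and 165 lower). Depth limits statements on genes under 1 CPM, where 160 of the 250 calls lie.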

Other observations

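Lysosomal genes were higher with siNTRK2 than with siBDNF in 11 of 36 members and lower in 5. The bone protease gene CTSK was at 150, 161 and 150 CPM with siNTRK2 and at 105, 108 and 105 CPM with siBDNF (log2 fold change 0.53, adjusted p = 7.70e-09 from edgeR), and the hydrolase genes GUSB (0.42), HEXA (0.37) and GLB1 (0.24), the last encoding the senescence-associated beta-galactosidase, were higher too. The immune protease CTSS was lower (-0.82). With library totals alone 6 were higher and 10 lower. Without siBDNF replicate 1 only 6 members were higher, and without siBDNF replicate 3 there were 7 higher and 3 lower, with 3 lower also without siNTRK2 replicate 3. Proteasome subunits were higher in 9 of 33 members and lower in 0, with PSMA2 leading (0.35), or in 4 without siBDNF replicate 2 and in 5 without siBDNF replicate 3, without siNTRK2 replicate 2 or with library totals alone.

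In the unfolded protein and integrated stress response, 7 of 29 members were higher and 6 lower, or 4 higher without siBDNF replicate 2. ATF4, the central transcription factor of the integrated stress response (0.30), and PHGDH of serine synthesis (0.28) were higher, and the chaperone gene DNAJB9 was lower (-0.66). Among genes of oxidative defence and iron handling, 5 of 22 were higher and 3 lower, or 2 higher without siBDNF replicate 2 and 3 without siNTRK2 replicate 3, siBDNF replicate 1 or siBDNF replicate 3, and 3 higher and 6 lower with library totals alone. HMOX1, which encodes the heme-degrading enzyme, was at 61.7, 61.1 and 62 CPM with siNTRK2 and at 85.9, 89.3 and 90.2 CPM with siBDNF (-0.52, adjusted p = 8.67e-09 from edgeR), and SLC40A1, the iron exporter ferroportin, was lower as well (-0.78). Among antigen presentation genes and ligands of natural killer cells, 2 of 22 were higher and 1 lower. These small counts became 1 and 0 without siNTRK2 replicate 1, siBDNF replicate 2 or siBDNF replicate 3, 2 and 0 without siBDNF replicate 1, 4 and 0 without siNTRK2 replicate 2, and 3 and 2 without siNTRK2 replicate 3.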
